A study of Rattus norvegicus with 12 samples.

Results

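Transcripts of 5 nuclear steroid hormone receptors, Esr1, Esr2, Pgr, Nr3c1 and Nr3c2, were examined in mammary glands of rats at postnatal day (PND) 21. The receptors were taken by name from a count table of 16511 genes, and all 5 were present in it. Glands came from offspring whose dams were given either a high fat butter diet (HFB in the labels, HBF hereafter) or the control AIN diet before birth, with 6 snap-frozen glands per diet and each gland from a different litter. The strain, named in the methods of the study and not in the labels, was Sprague-Dawley, and no other treatment is named in the labels. The descriptions of the exposure differ on when the diets ended, so the window is given here only as prenatal. The labels call the samples whole glands of these 2 diets, whereas the methods of the study describe sequencing of microdissected epithelia for another comparison. The tissue and diets given here are those of the labels. Each gland gave 1 library, named below by its diet and a number from 1 to 6 that carries no pairing between diets.

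Steroid hormone receptors are transcription factors that bind a lipid-soluble hormone, leave a complex with heat shock proteins and act on target genes with coactivators or corepressors. In the mammary gland, estrogen acts through Esr1 to drive duct growth, and progesterone acts through Pgr in part by way of paracrine factors that stimulate neighboring cells. Esr2 encodes the other nuclear estrogen receptor, Nr3c1 encodes the glucocorticoid receptor, which takes part in secretory differentiation and is active in fat tissue, and Nr3c2 encodes the mineralocorticoid receptor, which binds both aldosterone and glucocorticoids.

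Total counts per library ranged from 2403464 to 2944680 in the control group and from 2320267 to 2760871 in the HBF group. Levels are given as CPM (gene counts scaled to a common library total), normalized for library composition, and 3 counts, the level below which a gene was treated as not detectable, corresponded to 0.945 to 1.30 CPM. This limit covers counting error only. Levels of the receptors were compared between libraries and not with each other, because CPM does not correct for transcript length. A gene called the most abundant of a list by CPM is so on that uncorrected scale only.

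Whole glands hold several tissues, and the labels were checked against marker genes. All 9 adipocyte markers were detected, as were 9 of 10 epithelial markers, of which Cldn3 had 0 counts. HBF 6 and control 6 stood apart from the other libraries in lymphoid, adipocyte and fibroblast markers. The summed level of 7 lymphoid markers was 894 CPM in HBF 6 and 865 CPM in control 6, with Cd79b the most abundant by CPM at 261 CPM and 229 CPM. In the other HBF libraries the lymphoid sum was 186, 83.2, 13.6, 2.85 and 13.1 CPM, and in the other control libraries it was 20.5, 5.91, 33.8, 17.0 and 2.52 CPM. Adipocyte markers were low in the same pair of libraries, with a sum of 19092 CPM in HBF 6 and 15754 CPM in control 6, against 33980 to 42262 CPM in the other 10. Fibroblast markers were low there too, with sums of 24093 and 22809 CPM against 32557 to 52846 CPM. Epithelial markers varied widely, with the lowest sums in HBF 1, HBF 3 and HBF 2 (124, 183 and 200 CPM). Their highest sums were in HBF 6 and control 6 (762 and 780 CPM), with HBF 5 next at 699 CPM. Endothelial markers were also highest in HBF 6 and control 6 (478 and 513 CPM), against 165 to 269 CPM in the other 10. The fold changes of 4 receptors are therefore given with and without HBF 6 and control 6. Skeletal muscle markers also varied widely, without setting this pair apart. Their sums were 160 CPM in control 4, 312 CPM in HBF 1 and 1109 CPM in control 6. They reached 4583 CPM in HBF 3, 4925 CPM in control 5 and 5508 CPM in HBF 6. In bulk tissue, fewer cells of a type and less RNA per cell cannot be told apart.

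Esr1, the estrogen receptor of ductal growth, was near the limit of detection. In control glands its lowest, median and highest levels were 1.58, 2.87 and 5.17 CPM (4 to 14 counts), and in HBF glands they were 0.794, 1.998 and 5.35 CPM (2 to 15 counts). HBF 4 was the highest of all libraries and HBF 6 the lowest, the groups overlapped, and 5 of 6 HBF glands were below the control median. Esr1 did not pass the filter on low counts. In the edgeR fit of every gene with at least 1 count, its log2 fold change (HBF minus control) was -0.42 with an SE of 0.48 and an adjusted p of 0.998, and the 95% interval of the fold ran from 0.368 to 1.52. The log2 fold change was -0.37 with an SE of 0.45 (adjusted p = 0.91) without HBF 6 and control 6.

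Esr2 gave 1 count in all 12 libraries together, in HBF 6. Out of 31207930 counts this is a level of 0.0320 CPM before normalization, with an exact binomial (Clopper-Pearson) 95% interval of 0.000811 to 0.179 CPM. The interval takes all 12 libraries together and covers counting error only. With at most 1 count in a library, the gene was not detectable in either diet at this depth, and no fold change is given.

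Pgr, whose transcription is raised by estrogen in many target tissues, was also sparse. Control glands gave 9 Pgr counts in all, from 0 to 3 per library with a median of 2, and HBF glands gave 3 counts, from 0 to 2 with a median of 0. Counts were 0 in 2 of 6 control libraries and in 4 of 6 HBF libraries, HBF 6 and control 6 among them. Scaled by total counts, the ratio of HBF to control was 0.326, with an exact 95% counting interval of 0.0567 to 1.30 that includes no difference. In the edgeR fit without a filter, the log2 fold change of Pgr was -1.35 with an SE of 0.94 and an adjusted p of 0.998. The 95% interval of the fold ran from 0.0965 to 1.59. Without HBF 6 and control 6 the log2 fold change was -1.39 with an SE of 0.90 (edgeR, adjusted p = 0.856). A two-sided exact permutation test on log2 CPM gave p = 0.145 for Pgr and p = 0.277 for Esr1, both 1.0 after adjustment over the genes with counts. The ratio of Pgr to Esr1 within a library could not be read, since Pgr was under 3 counts in 6 of 6 HBF and 5 of 6 control libraries and the difference between diets followed the count added to each gene (-0.42 on the log2 scale with 0.5 added, -0.02 with 2 added).

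**Figure D1:**
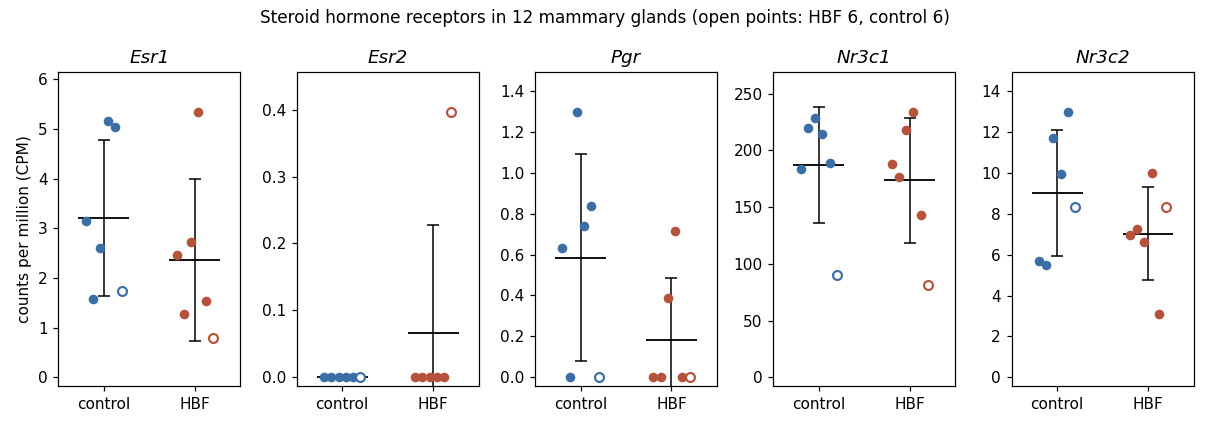
Levels of the 5 receptors in CPM (y axis, a separate scale for each gene) in 6 control and 6 HBF glands. Each point is a library, open points are HBF 6 and control 6, and bars give the mean and SD; the groups overlap for Esr1, Pgr, Nr3c1 and Nr3c2, and Nr3c1 is lowest in the open points of both diets.

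Nr3c1, the glucocorticoid receptor, had 206 to 657 counts in every library and passed the filter. Its lowest, median and highest levels were 89.8, 202 and 229 CPM in control glands and 81.8, 182 and 234 CPM in HBF glands. The lowest of each group was the library that stood apart, control 6 and HBF 6, and HBF 5 came next with 143 CPM, while the other 9 libraries lay between 176 and 234 CPM in both diets. The diets thus overlapped over nearly their whole range. The log2 fold change was -0.11 with an SE of 0.26 (edgeR, adjusted p = 0.999), and the 95% interval of the fold ran from 0.628 to 1.36. Without HBF 6 and control 6 it was -0.11 with an SE of 0.14 (adjusted p = 0.923), and the biological coefficient of variation of Nr3c1 was 0.166 in place of 0.329. The sign was not stable. It turned positive when HBF 6 alone was left out (0.03) and when the lymphoid score was a covariate (0.01).

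Nr3c2, the mineralocorticoid receptor, had 8 to 31 counts per library. In control glands the levels were 5.51, 9.16 and 13.0 CPM (lowest, median, highest) and in HBF glands 3.08, 7.10 and 9.98 CPM. Control 5 and control 3 were the highest and HBF 5 the lowest, 5 of 6 HBF glands were below the control median, and the groups overlapped. HBF 6 and control 6 were in the middle of the range at 8.33 and 8.35 CPM, unlike for Nr3c1. The log2 fold change of Nr3c2 was -0.35 with an SE of 0.30 (edgeR, adjusted p = 0.999), and the 95% interval of the fold ran from 0.498 to 1.23. It was -0.42 with an SE of 0.33 (adjusted p = 0.919) without HBF 6 and control 6. Exact permutation on log2 CPM gave p = 0.284 for Nr3c2 and p = 0.621 for Nr3c1, and an adjusted p of 0.996 for both.

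Neither of the 2 receptors that passed the filter was called, beside 0 of 9382 genes tested (0.0%) at an adjusted p under 0.05. At an unadjusted p under 0.05 edgeR gave 220 genes (2.34%), 122 of them higher (1.3%) and 98 lower (1.04%) with HBF, DESeq2 gave 271 and limma 613, each with 0 genes after adjustment. The balance of higher and lower genes was not stable, with 269 higher and 344 lower in limma, 112 and 157 in edgeR without HBF 6, and 417 and 170 without control 6. Groups that did not overlap were found for 10 genes (0.107%) and for none of the 5 receptors.

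**Figure D2:**
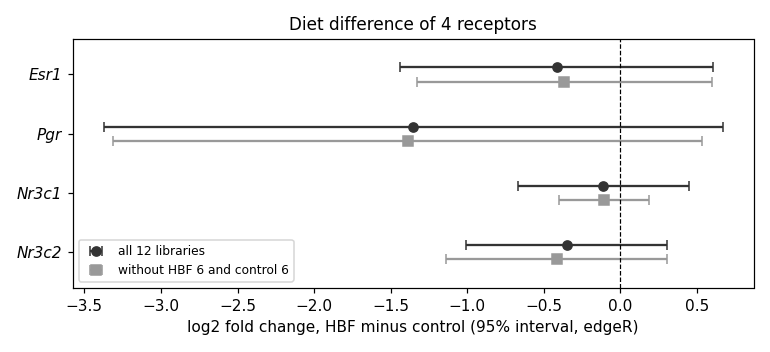
Log2 fold change (x axis, HBF minus control) of 4 receptors with 95% intervals from edgeR, for all 12 libraries (circles) and without HBF 6 and control 6 (squares). Every interval includes 0, and the interval of Nr3c1 is the narrowest. The estimates lie between -1.39 for Pgr (without HBF 6 and control 6), which rests on 12 counts, and -0.11 for Nr3c1.

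The balance of both corticosteroid receptors within a gland was compared as the log2 ratio of Nr3c2 to Nr3c1 counts, for which transcript length is the same in every library. It averaged -4.59 ± 0.73 (SD) in HBF glands and -4.36 ± 0.69 in control glands, a difference of -0.23 (two-sided exact permutation p = 0.565). The difference was -0.30 (exact permutation p = 0.333) without HBF 6 and control 6, and it lay at -0.04 without control 6 alone and -0.49 without HBF 6 alone. HBF 6 and control 6 had the highest values, with 10.2 and 9.30 Nr3c2 counts per 100 Nr3c1 counts, and HBF 5 the lowest with 2.16. The remaining libraries lay between 2.51 and 6.89, so that the spread between glands of a diet exceeded the difference between diets.

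Among 20 relations of the 5 receptors with 4 tissue scores, each the mean log2 CPM of a marker list, 2 passed an adjusted p of 0.05, both for Nr3c1. The 4 relations of Esr2 are among the 20 in the adjustment but rest on its 1 count in HBF 6 and are not read. Without HBF 6 and control 6 Esr2 had 0 counts in every library left. Its relations are void there, yet they stayed among the 20 in the adjusted p values given without these libraries. Nr3c1 was higher where adipocyte markers were higher with a Pearson r of 0.96 (permutation p = 7e-05, 0.0014 after adjustment) and a Spearman rho of 0.77 (permutation p = 0.00453, 0.0906 after adjustment). The r was 0.94 within HBF glands, HBF 6 among them, and 0.99 within control glands, control 6 among them. Within a diet, r without these libraries was not computed. HBF 6 and control 6 are the libraries farthest from the median score, and without them r was 0.78 (permutation p = 0.00884, adjusted p = 0.177), so the call rests on them. Nr3c1 was lower where lymphoid markers were higher with an r of -0.81 (permutation p = 0.00424, 0.0424 after adjustment) and a rho of -0.65 (permutation p = 0.0265, 0.265 after adjustment). It had an r of -0.75 within HBF and -0.88 within control glands, again with HBF 6 and control 6 included. Without the same libraries r was -0.23 (permutation p = 0.522), so this call rests on them as well. With the epithelial score Nr3c1 had an r of -0.58 (permutation p = 0.0479, 0.239 after adjustment), which was -0.66 without HBF 1 and control 3, the libraries farthest from the median of that score, and -0.28 without HBF 6 and control 6.

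Nr3c2 showed no such relation over 12 libraries, with r of 0.01 for adipocyte markers (permutation p = 0.987, the same after adjustment) and 0.04 for lymphoid markers (permutation p = 0.899, 0.947 after adjustment). The rho were 0.25 and -0.06 (permutation p = 0.429 and 0.869, adjusted 0.764 and 0.93). Without HBF 6 and control 6 its r with the adipocyte score was 0.65 (permutation p = 0.0405, adjusted p = 0.404). Esr1 was lower where lymphoid markers were higher with an r of -0.63 (permutation p = 0.029, 0.193 after adjustment) and a rho of -0.56 (permutation p = 0.0637, 0.318 after adjustment). Its r was -0.44 without the same libraries. The part of these tissues in the levels of these receptors was not tested beyond these values. The scores themselves differed between diets by -0.07 for adipocyte, 0.68 for lymphoid, -0.46 for epithelial and 0.37 for skeletal muscle markers, with exact permutation p values of 0.667, 0.621, 0.4 and 0.71.

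**Figure D3:**
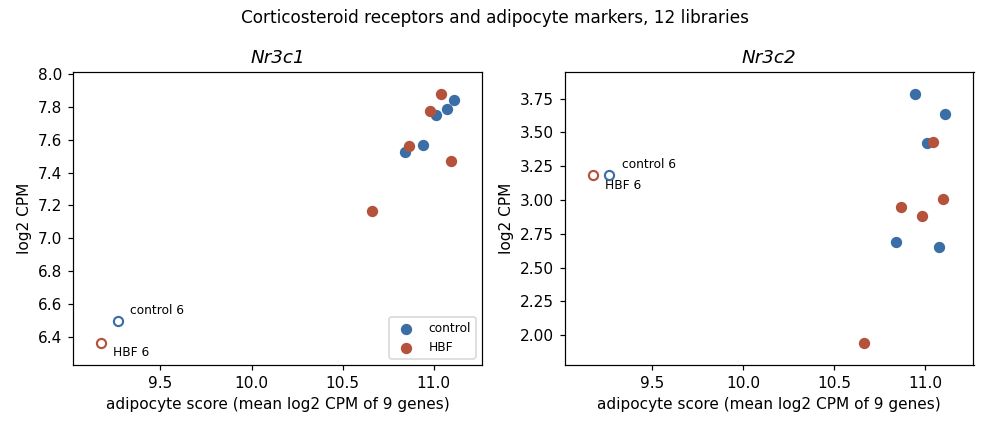
Log2 CPM of Nr3c1 and Nr3c2 (y axes) against the adipocyte score (x axis, mean log2 CPM of 9 marker genes) in 6 control and 6 HBF libraries. For Nr3c1 the open points of HBF 6 and control 6 lie at the low end of both axes (r = 0.96 with them and 0.78 without), whereas for Nr3c2 they lie at mid height.

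The genes with a pattern over the 12 libraries most like that of Nr3c1, among 9382, were Scamp1, Mettl7a, Aldh6a1, Septin2 and Akr1c14, with r between 0.98011 and 0.98305, and between 0.867 and 0.917 without HBF 6 and control 6. Scamp1 encodes a protein of secretory carrier membranes, Aldh6a1 a mitochondrial enzyme of valine breakdown, and Akr1c14 a hydroxysteroid dehydrogenase that also belongs to the enzyme list below. For Nr3c2 the closest genes were Tmcc3 (r = 0.87), a gene without a symbol (0.85), Trip12 (0.84), Akap11 (0.84) and Zfp292 (0.84). These r are the highest of many and are given without a test. Nr3c1 and Nr3c2 themselves had an r of 0.14 over 12 libraries and 0.65 over the 10.

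The 250 bases before the RefSeq start of a gene were at hand for Esr1, Esr2, Pgr and Nr3c1, the last with separate windows for 2 starts. Those of Esr1 (chr1:43641845-43642094, + strand) and of the upstream start of Nr3c1 (chr18:31614220-31614469, - strand), in assembly GRCr8 of RefSeq, are shown. They set a window of a sparse estrogen receptor beside one of a receptor with at least 206 counts in every gland. Capitals mark CpG dinucleotides.
Esr1: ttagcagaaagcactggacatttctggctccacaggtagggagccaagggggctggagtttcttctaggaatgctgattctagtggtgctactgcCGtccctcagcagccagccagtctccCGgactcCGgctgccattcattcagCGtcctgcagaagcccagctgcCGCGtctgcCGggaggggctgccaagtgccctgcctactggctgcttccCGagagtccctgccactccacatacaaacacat
Nr3c1: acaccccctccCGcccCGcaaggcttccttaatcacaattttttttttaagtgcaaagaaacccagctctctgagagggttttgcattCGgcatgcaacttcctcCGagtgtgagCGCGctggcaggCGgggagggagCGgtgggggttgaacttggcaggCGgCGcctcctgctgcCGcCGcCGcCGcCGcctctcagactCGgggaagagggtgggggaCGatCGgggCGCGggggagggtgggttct
Esr1 held 8 CpG and a GC content of 59.6%, and Nr3c1 20 CpG and 64.0%, against medians of 5 CpG and 51.2% over 33469 windows of the same length. The window of the other Nr3c1 start held 38 CpG, more than 98.3% of all windows. Those of Esr2 and Pgr held 14 and 5 CpG, with a GC content of 56.4% and 46.8%. The GC box GGGCGG, read on both strands, occurred once in the Nr3c1 window shown and in that of Pgr. It occurred 3 times in the window of the other Nr3c1 start and was not found in those of Esr1 and Esr2. Of all windows, 30.5% held it. Full palindromic response elements for estrogen (GGTCANNNTGACC) or glucocorticoid (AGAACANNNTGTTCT) were in none of the receptor windows and in 0.0239% and 0.0120% of all windows. A match, or none, describes only the letters of the window.

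Beyond the receptors, 107 of 120 genes on 9 lists of the pathway were analysed and 86 passed the filter. None had an adjusted p under 0.05, 2 had an unadjusted p under 0.05, namely Gata3 (lower with HBF) and Dusp1 (higher with HBF), and in none did the groups fail to overlap. A count of 2 in 86 is near the share over all genes tested (2.34%). The median log2 fold change over all genes tested was 0.00018, and the list medians are read beside it without a test.

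Of the estrogen response genes, 11 of 13 were tested, with a median of 0.06. Gata3, a transcription factor of luminal cells that acts with the estrogen receptor, had levels of 3.897, 7.73 and 10.1 CPM (lowest, median, highest) in control glands and 1.64, 3.48 and 7.13 CPM in HBF glands. All 6 HBF glands were below the control median, although the groups overlapped and the counts were only 4 to 32 per library. The lowest Gata3 library was HBF 1, which also had the lowest epithelial score. Its log2 fold change was -0.91 with an SE of 0.36 (edgeR, adjusted p = 0.999). Without HBF 6 and control 6 it was -0.84 with an SE of 0.39, and its unadjusted p no longer passed 0.05. With the epithelial score as a covariate it was -0.74 with an SE of 0.34, and the part of epithelial content was not tested further. Cxcl12, a chemokine induced by estrogen, had a log2 fold change of -0.25 with an SE of 0.15, and Igfbp4, a binding protein of insulin-like growth factors and the most abundant by CPM, one of 0.06 with an SE of 0.21. Without control 6, the highest library for Cxcl12, the value of Cxcl12 was -0.12 with an SE of 0.13.

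Only 3 of 8 genes on the progesterone paracrine list could be tested, namely Lrp5, Id4 and Elf5. All 3 had values below 0, as had 4688 of 9382 genes, with a median of -0.36. Lrp5, a Wnt co-receptor, had levels of 52.2, 73.5 and 77.1 CPM in control glands and 29.8, 53.2 and 71.7 CPM in HBF glands. All 6 HBF glands were under the control median, and HBF 6 and control 6 were the lowest of their groups. Its log2 fold change was -0.39 with an SE of 0.18 (edgeR, adjusted p = 0.999). Without HBF 6 and control 6 it was -0.33 with an SE of 0.12, past an unadjusted p of 0.05 but with an adjusted p of 0.919. Id4, a regulator of basal cells, had a value of -0.36 with an SE of 0.30, and Elf5 one of -0.34 with an SE of 0.43. The paracrine factors downstream of progesterone, Wnt4 and Tnfsf11 (RANKL), had at most 8 and 6 counts in a library, and Calca had 0 counts. These factors were not tested, and the list median does not include them.

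Of 17 glucocorticoid response genes 16 were tested, and 11 had values above 0, as had 4694 of 9382 genes, with a list median of 0.19. Dusp1, a phosphatase that shuts off MAP kinases, ranged from 89.4 through a median of 117 to 140 CPM in control glands and from 86.1 through 156 to 234 CPM in HBF glands. The highest 5 libraries were all HBF, and HBF 6 was the lowest. The log2 fold change of Dusp1 was 0.49 with an SE of 0.20 (edgeR, adjusted p = 0.999). Nfkbia, the inhibitor of NF-kappa-B, had levels of 60.2, 81.8 and 147 CPM in control glands and 88.7, 119 and 141 CPM in HBF glands. Its highest level was that of control 6, above every HBF gland, whereas the other 5 control glands were all below the lowest HBF gland. The log2 fold change of Nfkbia was 0.44 with an SE of 0.21 (edgeR, adjusted p = 0.999).

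Without HBF 6 and control 6, 3 of 17 glucocorticoid response genes tested had an unadjusted p under 0.05, all higher with HBF, beside 431 of 9386 genes (4.59%) in that fit. They were Dusp1 with a log2 fold change of 0.64 (SE 0.17), Nfkbia with 0.60 (SE 0.15) and Zfp36, which encodes a protein that destabilizes cytokine transcripts, with 0.76 (SE 0.20). The adjusted p was 0.919 for each, and 0 genes (0.0%) were called. On the 9 lists together, 4 genes had an unadjusted p under 0.05 in that fit, these 3 and Lrp5. List genes that failed the filter are not in this count. In the edgeR fit without a filter on the same libraries, Prlr (-1.24), Adamts18 (-1.83) and Scnn1g (-1.23) also had an unadjusted p under 0.05. They were lower with HBF, each with an adjusted p of 0.856, and had at most 13, 34 and 14 counts in a library. Over all 12 libraries Zfp36 had a log2 fold change of 0.46 with an SE of 0.27, and its unadjusted p did not pass 0.05. The 5 HBF and 5 control glands did not overlap for Dusp1 and Nfkbia, which was so for 75 of 9382 genes (0.799%). For both genes the levels given above already fixed this, so it describes the glands and is no further result. Dusp1, Nfkbia and Zfp36 also respond to signals other than glucocorticoids.

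Genes of the list differed in direction. Fkbp5, a co-chaperone and a widely used readout of the glucocorticoid receptor, ranged from 50.02 through a median of 63.8 to 203 CPM in control glands and from 33.2 through 58.3 to 134 CPM in HBF glands, with a log2 fold change of -0.39 and an SE of 0.41. The direction rests on control 5, without which the value was 0.04 with an SE of 0.35. Control 5 was the highest Fkbp5 library, in which Per1, Zbtb16, Klf9, Cdkn1a and Sult1a1 also had their highest level, 6 of 17 genes in all, beside 706 of 9382 genes tested (7.53%). Zbtb16 did not pass the filter, so it is among the 17 genes but not among the 9382. HBF 2 had the highest level of 4 genes (Tsc22d3, Dusp1, Errfi1 and Zfp36) and HBF 6 of 3 (Mt2A, Angptl4 and Lcn2), beside 681 (7.26%) and 2150 (22.9%) of all genes tested. Nr3c1 was at 189 CPM in control 5 and 176 CPM in HBF 2, within the range of the other glands. Pck1, an enzyme of glyceride synthesis in fat cells, was the most abundant of the list by CPM and ranged from 90.5 CPM in control 6 to 1329 CPM in HBF 4.

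**Figure D4:**
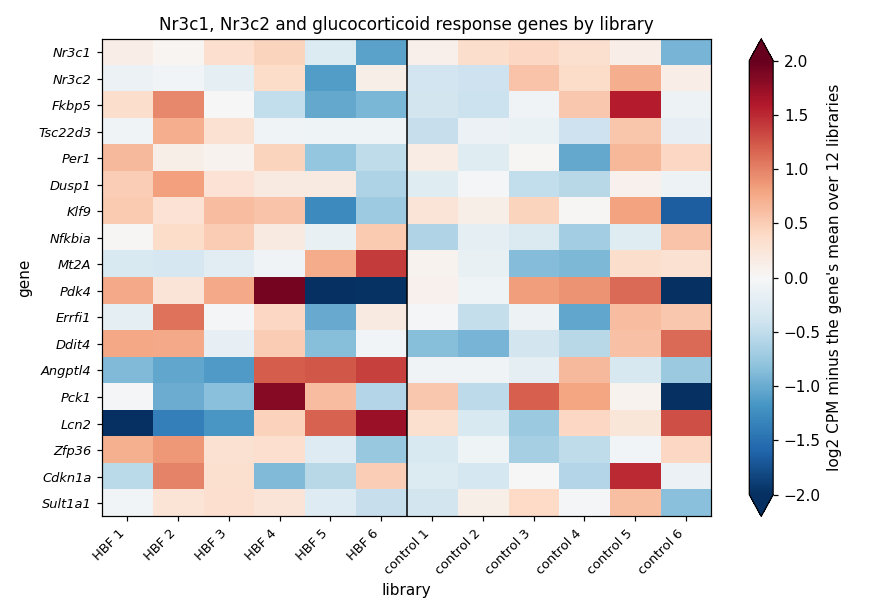
Log2 CPM minus the gene's mean over 12 libraries (color, cut at -2 and 2) for Nr3c1, Nr3c2 and 16 glucocorticoid response genes (rows) in each library (columns, HBF left of the line). Nr3c1 is low in HBF 6 and control 6, Fkbp5 and Cdkn1a are highest in control 5, and Dusp1 is above its mean in the first 5 HBF libraries.

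Among mineralocorticoid response genes 7 of 8 were tested, with a median of -0.05 and none with an unadjusted p under 0.05. Wnk1, a kinase that controls ion transport, was the most abundant by CPM, with a log2 fold change of -0.07 and an SE of 0.13. Scnn1b, a subunit of the epithelial sodium channel, had a value of -0.35 with an SE of 0.66, and its level in HBF 6 (15.5 CPM) was far above the median of 3.47 CPM in HBF glands. The value for Scnn1b was -1.14 with an SE of 0.57 (edgeR, adjusted p = 0.919) without HBF 6 and control 6. Scnn1g, another subunit of the channel, had 1 to 14 counts per library and failed the filter. Its mean was 1.22 CPM in HBF and 2.87 CPM in control glands, and 5 of 6 HBF glands were below the control median. Without a filter, 1 gene of the list had an unadjusted p under 0.05.

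Enzymes that make or remove the ligands showed no unadjusted p under 0.05 in 14 tested of 20 analysed, with a median of -0.04. Hsd11b1, which regenerates active glucocorticoid and is abundant in fat tissue, had levels of 29.2, 87.5 and 118 CPM in control glands and 33.3, 78.9 and 96.0 CPM in HBF glands. Its lowest libraries were control 6 and HBF 6, as for Nr3c1, and the log2 fold change was -0.18 with an SE of 0.31, and -0.21 with an SE of 0.17 without them. Hsd11b2, which inactivates glucocorticoid and so guards the mineralocorticoid receptor, ranged from 6.50 to 22.4 CPM in control and from 5.44 to 24.7 CPM in HBF glands, with a value of -0.05 and an SE of 0.39. H6pd, which supplies the cofactor of Hsd11b1, had a value of -0.16 with an SE of 0.21. Hsd17b12, the most abundant by CPM, and Hsd17b10 had values of 0.19 and 0.18, with SEs of 0.26 and 0.13. The value of Hsd17b12 was 0.06 without control 6 and 0.32 without HBF 6. With the epithelial score as a covariate it turned to -0.03. Cyp19a1, the aromatase that makes estrogen, had at most 2 counts in a library.

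The 12 chaperones and co-chaperones had a median log2 fold change of 0.04 and a median biological coefficient of variation of 0.196, against 0.286 over all genes tested, a difference that was not tested. Stub1 lay above both, at 0.302. Hsp90ab1, the most abundant by CPM, ranged from 849 to 986 CPM in control and from 754 to 1048 CPM in HBF glands, with a value of -0.01 and an SE of 0.12. Ppp5c, a phosphatase bound to Hsp90, had a value of -0.14 with an SE of 0.10 and a coefficient of variation lower than in all but 0.213% of the genes tested. All 6 HBF glands were below the control median of Ppp5c, and the groups overlapped. Fkbp4, a co-chaperone that aids hormone binding, had a value of 0.22 with an SE of 0.19. The value of Fkbp4 was 0.07 without HBF 6, its highest library, and 0.36 without control 6. Hspa8 has many near-identical copies, so its counts are uncertain, and the same holds for Akr1c14 and Akr1c19.

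The coactivators had a median of -0.13 over 9 tested genes and the corepressors one of -0.05 over 9, with no unadjusted p under 0.05 in either list. Ddx5 and Ddx17, RNA helicases that assist Esr1, had values of -0.19 and -0.30 with SEs of 0.16 and 0.26, and for both HBF 5 was the lowest library. Without HBF 5 the values of Ddx5 and Ddx17 were -0.08 and -0.14. Of the corepressors, Tbl1x, a subunit of the NCoR complex, had a value of -0.22 with an SE of 0.17, Nrip1 one of -0.23 with an SE of 0.28, and Phb2, the most abundant by CPM, one of 0.09 with an SE of 0.11. The values of Tbl1x and Nrip1 were -0.12 and -0.10 without HBF 6, and -0.29 and -0.39 without control 6. With the lymphoid score as a covariate that of Nrip1 was -0.03.

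Receptors outside the nuclear steroid group were measured beside them. Of 9 related and membrane receptors 5 were tested, with a median of -0.08. Pgrmc1 and Pgrmc2, membrane proteins named for progesterone binding, had values of -0.08 and -0.01 with SEs of 0.12 and 0.26. Paqr5, a membrane progestin receptor, was at 22.3 CPM in control 6 and 11.9 CPM in HBF 6, against at most 4.76 CPM in the other control and 5.01 CPM in the other HBF glands. Its log2 fold change was -0.37 with an SE of 0.55, and 0.10 with an SE of 0.28 without these libraries. The membrane estrogen receptor Gper1 had at most 5 counts in a library.

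**Figure D5:**
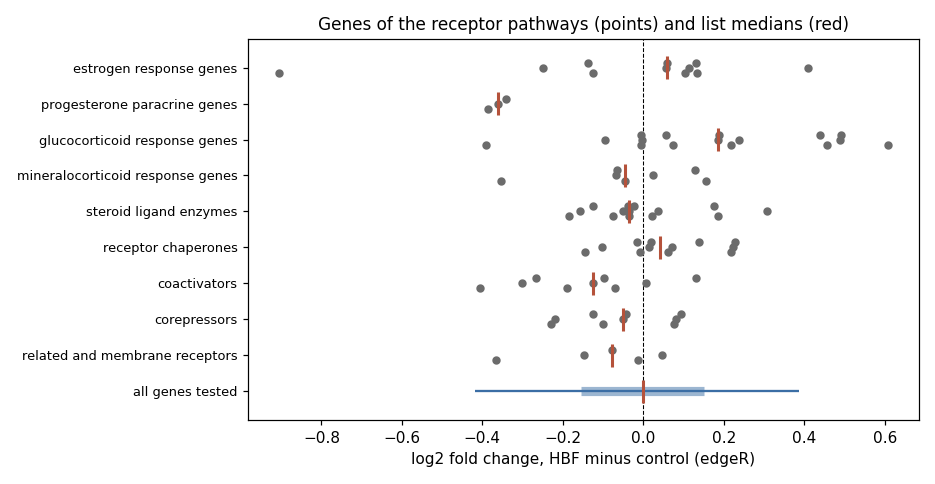
Log2 fold change (x axis, HBF minus control) of 86 tested genes on 9 lists (points) with each list's median (red line), beside all 9382 genes (red line at the median, thick bar for the interquartile range, thin line from the 5th to the 95th percentile). The values of 8 lists lie on both sides of 0. The list medians run from -0.36 in the 3 tested genes of the progesterone paracrine list (Lrp5, Id4 and Elf5) to 0.19 in the glucocorticoid response genes.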

How the data were processed

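Per the labels, RNA was taken from whole mammary glands with a kit for lipid-rich tissue (Qiagen RNeasy Lipid) and sequenced on an Illumina platform. The authors deposited raw counts per gene, without normalization, and the submitters' processing notes name bcl2fastq, CASAVA 1.8, TopHat, DESeq and the build rn4. The counting program, annotation and use of strand are not given in the sources used here, so antisense or near-identical genes could share reads. Entrez identifiers were matched to symbols of RefSeq (GRCr8) for 16351 of 16511 genes. Promoter sequences came from the same source, and its coordinates are given for them only.

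The diets were compared by the quasi-likelihood test of edgeR 4.0.16 (R 4.3.3) after filterByExpr and TMM, with Benjamini-Hochberg adjustment over all genes tested and a threshold of 0.05, and CPM were computed with TMM factors. Receptors that failed the filter were taken from the fit without a filter. Exact permutation tests used all 924 splits of 6 against 6 libraries (smallest p 0.0022), or all 252 of 5 against 5 (smallest p 0.00794), on log2 CPM with a prior count of 2 for genes and scores and on log2 count ratios with 0.5 added for ratios. Correlations used 100000 permutations in Python 3.11.15, adjusted over 20 relations. Replicate libraries differed beyond sampling noise in all 30 pairs. Alternatives were DESeq2 1.42.0, other size factors, other filters, limma 3.58.1 with sample quality weights, tissue scores as covariates, and leaving out each library. Leaving out HBF 6 and control 6 together was added after the data had been seen.

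The members and lists were chosen with earlier results of these data known. Genes were named by rule: the 5 receptors, the most abundant and the 2 with the smallest p in each list, and the 5 most similar in pattern to Nr3c1 and to Nr3c2. Other genes named were chosen after their values were seen.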

Additional observations from a re-analysis of the deposited data

Results flagged for a closer look

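In 80 groups of 6 libraries, the highest or lowest library was compared with the nearest of the others, relative to the range of the group. Chance alone would mark about 1 in 20 groups (4 of 80) if the groups were independent and normal in spread, and 16 values in 7 libraries were marked. These groups come from the same 12 libraries and are not independent, so the 16 are not read as an excess over chance. For Esr2, with 1 count, the mark was fixed in advance. Most belonged to HBF 6 or control 6. Control 6 was lowest for Nr3c1 (89.8 CPM, next 184), the adipocyte score (9.27, next 10.84), the fibroblast score (9.53, next 10.52) and Lrp5 (52.2 CPM, next 68.0), and highest for the lymphoid score (6.76, next 2.38), Nfkbia (147 CPM, next 86.6) and Paqr5 (22.3 CPM, next 4.76). HBF 6 was lowest for the adipocyte score (9.18, next 10.66) and highest for Scnn1b (15.5 CPM, next 5.01), Paqr5 (11.9 CPM, next 5.01) and Esr2 (0.397 CPM, which is 1 count). The part of lymphoid, fat and other tissue in these values was not tested.

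The others were the total counts of HBF 1 (2320267, next 2629159) and control 1 (2944680, next 2570080), Ddx5 in HBF 5 (197 CPM, next 326), Pck1 in HBF 4 (1329 CPM, next 581) and Fkbp5 in control 5 (203 CPM, next 99.0).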

How the results depend on the processing

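The count of 0 genes past the adjusted threshold held in the 22 alternatives of the fit. At an unadjusted p under 0.05 the count went from 220 to 613 with limma, 816 with the epithelial score as a covariate, 361 with the lymphoid score and 431 without HBF 6 and control 6, and from 135 without HBF 5 to 587 without control 6. No receptor passed the adjusted threshold in any alternative. Esr1, Pgr and Nr3c2 kept values below 0 in every alternative that gave one, with ranges over single left-out libraries of -0.84 to -0.23, -2.27 to -1.01 and -0.48 to -0.20. Nr3c1 ran from -0.25 to 0.034, positive without HBF 6 (0.034) and with the lymphoid score as a covariate (0.00803); the cause was not tested. The difference in the Nr3c2 to Nr3c1 ratio (-0.23) stayed below 0 but ran from -0.49 without HBF 6 to -0.04 without control 6. That in the Pgr to Esr1 ratio (-0.42) was -0.02 with a pseudocount of 2 and -0.73 without HBF 6 and control 6, ran from -0.63 without control 6 to -0.11 without control 3, and is not read as a result. The 2 relations of Nr3c1 past the threshold became 0 without the 2 libraries farthest from the median of each score. Esr1 with skeletal muscle (0.15, without HBF 1 and control 4) and Nr3c2 with the lymphoid score (-0.10, without HBF 6 and control 6) then changed sign. Leaving out HBF 6 and control 6 for every score also turned Esr1 with the epithelial score (0.23) and with skeletal muscle (0.08), Pgr with the epithelial score (0.16) and Nr3c1 with skeletal muscle (0.09). Esr2 rests on 1 count, in HBF 6, and its relations are not read. Without HBF 6 and control 6 it had 0 counts in every library left, so no r exists for it there. Nr3c2 with the adipocyte score changed sign with DESeq2 size factors (-0.00947). List genes with an unadjusted p under 0.05 went from 2 to 4 without a filter and to 4 without HBF 6 and control 6. Esr1, Esr2, Pgr and Nr3c2 gave no value with at least 10 counts in every library, and Esr2 gave no fold in any fit. No paired analysis was possible because the libraries of the 2 diets share no numbers. Esr1, Esr2 and Pgr had few counts, 2 to 15, at most 1 and at most 3 per library, and how far depth or variation between glands widens their intervals was not tested.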
